A study of Mus musculus with 9 samples.

Results

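Immediate early genes are switched on within minutes of neuronal stimulation, without new protein synthesis. The 10 examined here were *Fos*, *Fosb*, *Jun*, *Junb*, *Egr1*, *Egr2*, *Egr3*, *Arc*, *Npas4* and *Nr4a1*. They were taken by name from the deposited transcript table, where 24 of 107384 RefSeq transcript rows belonged to them, and the rows of each gene were summed. All 10 were among the 18559 protein-coding genes with a count and among the 15267 that were tested. The test kept genes with at least 0.5 counts per 1000000 protein-coding counts (CPM) in at least 3 libraries.

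In RIP-seq, RNA bound to a protein is recovered on an antibody to that protein and then sequenced. The 9 libraries were 3 CELF2-KI RIPs, 3 IgG RIPs and 3 inputs, with replicates numbered 1 to 3 in each. All came from the cytoplasmic fraction of dissociated cortices of mice at postnatal day 0, and every animal carried 1 copy of the knock-in allele. The genotype was heterozygous CELF2 p.R493H in all 3 groups. The allele was made by CRISPR/Cas9 editing, and the anti-CELF2 antibody is not described as specific for the mutant protein. The IgG RIP used normal rabbit IgG on the same kind of lysate, and the input was lysate that met no antibody. No wild-type RIP was analysed here, and the labels give no stimulation. The comparisons therefore ask which of these mRNAs were recovered with CELF2 in the cytoplasm of the mutant cortex, and not whether the mutation changed them.

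The products fall into a few families. FOS and JUN proteins pair to form the AP-1 transcription factor, EGR proteins are zinc-finger transcription factors, NR4A1 is an orphan nuclear receptor, and NPAS4 is a neuron-specific transcription factor of the bHLH-PAS family. ARC is not a transcription factor but acts at the synapse, where it promotes AMPA receptor endocytosis, and its mRNA is carried into dendrites. CELF2 is an RNA-binding protein that recognises GU-rich sequences, often in 3′ untranslated regions, and many immediate early mRNAs are short-lived transcripts with AU-rich or GU-rich 3′ ends.

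In brief, none of the 10 mRNAs was called higher than both controls, beside 7.58% of all tested genes. *Arc* was called lower in CELF2-KI RIP than both, as were 9.54% of all tested genes. It stood at 0.493 of its level in IgG RIP and 0.442 of its level in input. Its call against IgG RIP held in 3 of 9 fits that left out 1 library. With the replicate number as a block that call, and so the call against both controls, was lost (edgeR FDR = 0.0104). *Egr3* was called higher than in IgG RIP, at 2.76-fold, as were 13.4% of all tested genes. The call of *Egr3* held in 6 of 9 such fits and was lost with total counts or the upper quartile in place of TMM. *Jun* was 1.95-fold and 1.84-fold higher than in the 2 controls, while *Fos* and *Npas4* did not differ from either beyond their error. The plot of levels by library shows all 10 genes.

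**Figure D1:**
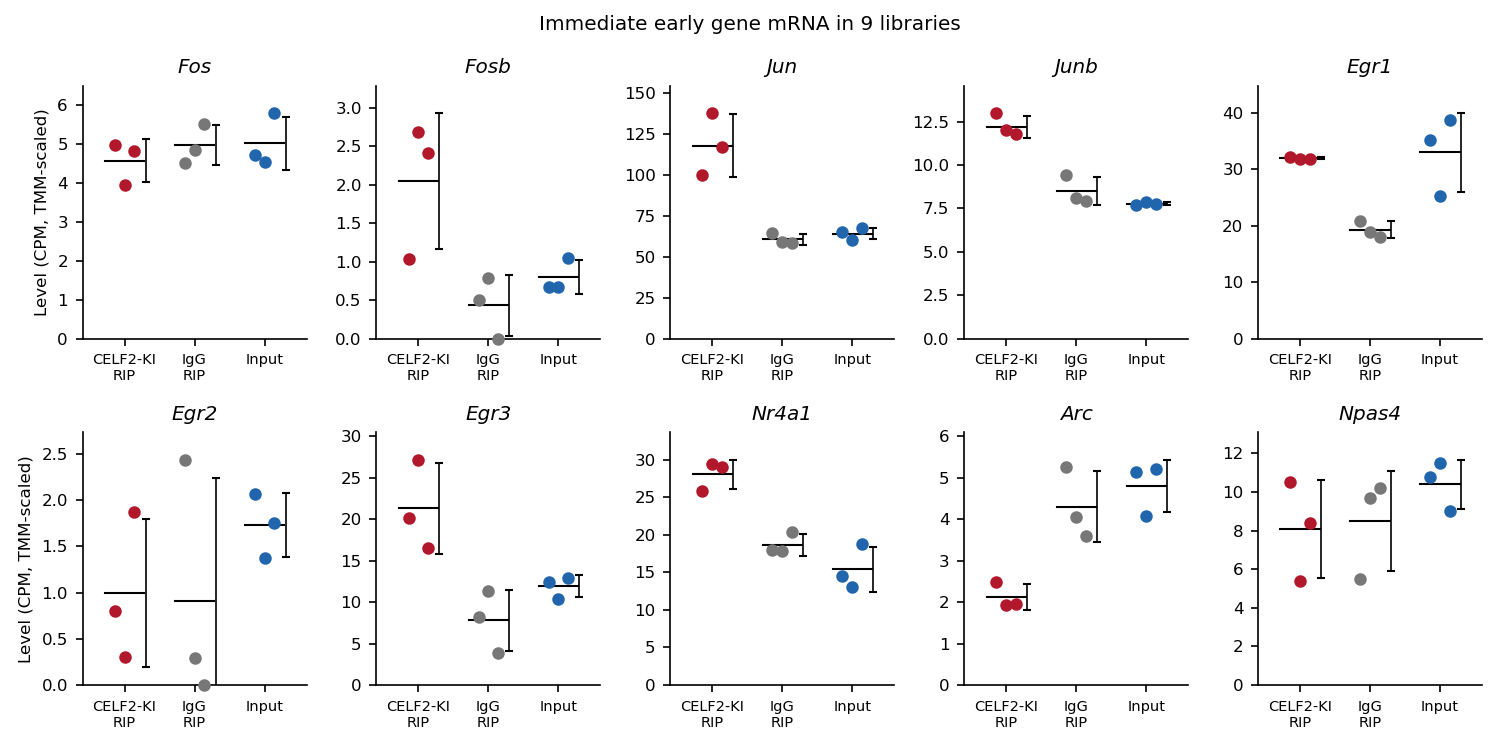
Level of each gene in each library, in CPM on the TMM-scaled library size (y axes start at 0 and differ between panels). Points are replicates 1, 2 and 3 from left to right, horizontal lines are means and error bars are ± 1 SD (n = 3 libraries), with the bar of *Egr2* in IgG RIP cut at 0. *Arc* points of CELF2-KI RIP lie below all 6 control points, and those of *Jun*, *Junb*, *Egr3* and *Nr4a1* lie above all 6.

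Protein-coding counts ranged from 13523190 to 16840230 in CELF2-KI RIP, from 9347252 to 14965224 in IgG RIP and from 55250725 to 78514665 in input, so the input values were the best sampled. Rows without a gene in the annotation took 21.1% to 43.5% of all counts in IgG RIP, 11.6% to 12.6% in CELF2-KI RIP and 9.24% to 9.75% in input. Levels below are CPM after TMM scaling, which allows a gene to be compared between libraries but not with another gene, since it takes no account of transcript length. Differences are log2 fold changes from edgeR's quasi-likelihood test with Benjamini-Hochberg adjustment (FDR) over all tested genes, given with their standard error (SE). A gene was called when it changed at least 2-fold with an FDR under 0.01. The labels describe the replicates as biological but not which animals they came from, and p-values measure the spread between these libraries.

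*Arc* (gene ID 11838; chromosome 15, 74669081 to 74672570 on mm10) was the single member called in both comparisons. It held 2.48, 1.92 and 1.96 CPM across CELF2-KI RIP replicates 1, 2 and 3, against 5.25, 4.06 and 3.58 in the IgG RIPs and 5.13, 4.07 and 5.21 in the inputs. Every CELF2-KI RIP library lay below every control library, and the 2 controls overlapped. These levels rest on 31, 25 and 22 reads in CELF2-KI RIP, on 84, 41 and 50 in IgG RIP and on 323, 370 and 322 in input.

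The log2 fold change of *Arc* was -1.02 (SE 0.26, 95% interval -1.60 to -0.44) against IgG RIP, or 0.493 of its level there, with edgeR's FDR = 0.00738. Against input it was -1.18 (SE 0.26, 95% interval -1.74 to -0.61), or 0.442 of the input level, with FDR = 0.00258. Between IgG RIP and input the difference was -0.16 (SE 0.24, FDR = 0.636). Over all tested genes, 13.6% were called lower than IgG RIP, 15.5% lower than input and 9.54% lower than both, against 1 of 10 members in each case. At any fold, 19.2% of all genes passed the FDR in the lower direction against IgG RIP and 20.1% against input, and *Arc* was again the 1 member. The size of the change lay close to the 2-fold limit and the counts were low. The call against IgG RIP held in 3 of 9 fits that left out 1 library (CELF2-KI RIP replicate 1, IgG RIP replicate 3 or input replicate 2), with an FDR of 0.0281 at most over the 9, and the call against input held in 7 of 9, being lost without CELF2-KI RIP replicate 2 or replicate 3. Without IgG RIP replicates 1 and 2, which had the most counts in rows without a gene, the value against IgG RIP was -0.86 and was not called.

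*Jun* (gene ID 16476; chromosome 4, 95049036 to 95052222) encodes c-Jun, the central JUN subunit of AP-1. Its levels were 100, 138 and 117 CPM across the CELF2-KI RIPs, 64.4, 59.2 and 58.5 in the IgG RIPs and 64.9, 60.3 and 67.4 in the inputs. The CELF2-KI RIP libraries stood above all 6 controls without overlap, and the controls overlapped each other. *Jun* was 1.95-fold higher than in IgG RIP (log2 0.96, SE 0.13, edgeR FDR = 0.00016) and 1.84-fold higher than in input (log2 0.88, SE 0.13, FDR = 0.000226).

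Both values passed the FDR in all 9 fits without a library. Both lay just under the 2-fold limit, so *Jun* was not called, although leaving out CELF2-KI RIP replicate 1 or IgG RIP replicate 1 took the first value to 1.07 and 1.01 on the log2 scale. Of all tested genes, 17.4% were higher than both controls at an FDR under 0.01 at any fold, and *Jun* was the 1 member of 10 that was.

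*Junb* (gene ID 16477; chromosome 8, 84976909 to 84978748), a JUN paralog that partners FOS proteins, was also highest in CELF2-KI RIP. It reached 13.0, 12 and 11.8 CPM across the CELF2-KI RIPs, 9.45, 8.12 and 7.95 in the IgG RIPs and 7.71, 7.86 and 7.78 in the inputs. The 3 conditions did not overlap, with CELF2-KI RIP highest and input lowest. The rise over input passed the FDR (log2 0.65, SE 0.15, edgeR FDR = 0.0033), and did so in 5 of 9 fits without a library, the exceptions being CELF2-KI RIP replicate 1 and each input replicate. The difference from IgG RIP narrowly missed it (log2 0.52, SE 0.15, FDR = 0.0138), and IgG RIP and input did not differ beyond their error (log2 0.13, SE 0.15, FDR = 0.51).

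*Fos* (gene ID 14281; chromosome 12, 85473890 to 85477274), the prototype of the class and the partner of JUN in AP-1, was level across the experiment. Its libraries held 4.96, 3.93 and 4.82 CPM across the CELF2-KI RIPs, 4.50, 4.85 and 5.52 in the IgG RIPs and 4.72, 4.54 and 5.79 in the inputs. All 3 conditions overlapped. The log2 difference of CELF2-KI RIP was -0.12 (95% interval -0.61 to 0.37, edgeR FDR = 0.672) from IgG RIP and -0.14 (95% interval -0.61 to 0.34, FDR = 0.605) from input. With TMM scaling a change of 2-fold in either direction lay outside both intervals. Over 5 scalings the values of *Fos* ran from -0.48 to -0.12 against IgG RIP and from -0.59 to -0.14 against input. The behaviour of *Fos* next to that of *Jun* was not tested as a difference between genes.

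*Fosb* (gene ID 14282; chromosome 7, 19302696 to 19310118) encodes a FOS paralog whose truncated product accumulates with repeated stimulation. It was rare, with 1.04, 2.69 and 2.41 CPM across the CELF2-KI RIPs, 0.5, 0.793 and 0 in the IgG RIPs and 0.667, 0.672 and 1.05 in the inputs. The CELF2-KI RIP libraries lay above those of IgG RIP, where the counts were 8, 8 and 0, but their lowest value fell just under the highest input. The log2 difference was 2.30 from IgG RIP (95% interval 0.52 to 4.07, edgeR FDR = 0.0318) and 1.36 from input (95% interval -0.18 to 2.90, FDR = 0.113). At these counts neither difference passed the threshold, and the intervals reach from small changes to very large ones. Without IgG RIP replicates 1 and 2 the value against IgG RIP was 9.19, and the IgG RIP library left had 0 counts. That value therefore gives no usable size of the difference. Both rows of *Fosb* were summed, and all of its reads fell in the curated one.

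*Egr3* (gene ID 13655; chromosome 14, 70077317 to 70082613), an EGR factor downstream of calcium and MAP kinase signalling, was the 1 member called higher than IgG RIP. It stood at 20.1, 27.2 and 16.5 CPM across the CELF2-KI RIPs, 8.19, 11.3 and 3.87 in the IgG RIPs and 12.4, 10.4 and 12.9 in the inputs. CELF2-KI RIP exceeded all 6 controls, and the IgG RIP libraries spread widely and overlapped the input at their upper end. Over IgG RIP the enrichment was 2.76-fold (log2 1.46, SE 0.33, 95% interval 0.72 to 2.21, edgeR FDR = 0.00385). Over input it was 1.79-fold and missed the threshold (log2 0.84, SE 0.32, FDR = 0.0415).

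Among all tested genes, 13.4% were called higher than IgG RIP, against 1 of 10 members, and 22.9% were higher at any fold, against 3 of 10 (*Jun*, *Egr1* and *Egr3*). The call of *Egr3* held in 6 of 9 fits without a library and was lost without CELF2-KI RIP replicate 2, IgG RIP replicate 1 or input replicate 3, at an FDR of 0.0186 at most.

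*Egr1* (gene ID 13653; chromosome 18, 34861207 to 34864956), a widely used marker of neuronal activity, separated the controls from each other. Its levels were 32.2, 31.9 and 31.8 CPM across the CELF2-KI RIPs, 20.9, 18.9 and 18 in the IgG RIPs and 35.2, 25.2 and 38.7 in the inputs. CELF2-KI RIP lay above all IgG RIP libraries and inside the range of the input. The difference from IgG RIP passed the FDR (log2 0.73, SE 0.17, edgeR FDR = 0.00409), though in 2 of 9 fits without a library (IgG RIP replicate 1 or input replicate 2), and the difference from input was -0.05 (95% interval -0.41 to 0.32, FDR = 0.828).

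IgG RIP was itself lower than input for *Egr1* (log2 -0.78, SE 0.17, edgeR FDR = 0.00509), in 5 of 9 fits without a library, the exceptions being IgG RIP replicates 1 and 2 and input replicates 1 and 3. The value over IgG RIP and the value of IgG RIP against input share the same 3 libraries. Across all tested genes, 11.3% were lower in IgG RIP than in input at any fold, against this 1 member. At the 2-fold limit 11.8% of all genes were called between IgG RIP and input in either direction. Of the members 0 were, by edgeR and by DESeq2 alike, with 1 member (*Egr1*) at an unadjusted p under 0.05. Over all 15267 tested genes, 3082 were higher and 2979 lower in IgG RIP than in input at the stricter cut of an FDR under 0.05.

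*Egr2* (gene ID 13654; chromosome 10, 67534469 to 67542188), known also for its role in Schwann cell myelination, was too rare in the RIPs for a comparison. It had 0.8, 0.308 and 1.87 CPM across the CELF2-KI RIPs, 2.44, 0.297 and 0 in the IgG RIPs and 2.07, 1.38 and 1.75 in the inputs. The counts were 10, 4 and 21 in CELF2-KI RIP and 39, 3 and 0 in IgG RIP, so 1 IgG RIP library held nearly all of that group's reads. All conditions overlapped, and the 95% interval of the log2 difference ran from -2.29 to 2.38 against IgG RIP and from -3.0 to 1.37 against input. The span of *Egr2* also overlaps a long noncoding gene, Gm32255.

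*Nr4a1* (gene ID 15370; chromosome 15, 101253902 to 101274795), a nuclear receptor induced by calcium signalling, was highest in CELF2-KI RIP as well. It held 25.9, 29.4 and 29.1 CPM across the CELF2-KI RIPs, 18, 17.8 and 20.4 in the IgG RIPs and 14.5, 13.1 and 18.8 in the inputs. CELF2-KI RIP was above all 6 controls, which overlapped each other. It was 1.82-fold higher than in input (log2 0.87, SE 0.16, edgeR FDR = 0.000966), passing in 7 of 9 fits without a library, all but those without input replicate 1 or 2. The 1.5-fold difference from IgG RIP came close to the threshold without passing it (log2 0.59, SE 0.16, FDR = 0.011).

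In all, 26.8% of tested genes were higher in CELF2-KI RIP than in input at any fold, against 3 of 10 members (*Jun*, *Junb* and *Nr4a1*). With the 2-fold limit 14.6% of all genes were called higher than input and 7.58% higher than both controls, against 0 members in each case by edgeR. At an edgeR FDR under 0.05 with no minimum fold, 5 of 10 members differed from input in either direction. Over all 15267 tested genes, 5319 were higher and 3903 lower than input at the same cut. DESeq2's Wald test with the 2-fold limit and an FDR under 0.01 also called *Arc* alone.

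*Npas4* (gene ID 225872; chromosome 19, 4984353 to 5003439), which is induced selectively by depolarisation and calcium entry, did not separate the conditions. Its levels were 10.5, 5.39 and 8.39 CPM across the CELF2-KI RIPs, 5.50, 9.71 and 10.2 in the IgG RIPs and 10.8, 11.5 and 8.99 in the inputs. All 3 overlapped, with a near-doubling between the lowest and highest library of each RIP. The log2 difference was -0.07 from IgG RIP (95% interval -0.72 to 0.59, edgeR FDR = 0.867) and -0.37 from input (95% interval -1.0 to 0.27, FDR = 0.288).

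**Figure D2:**
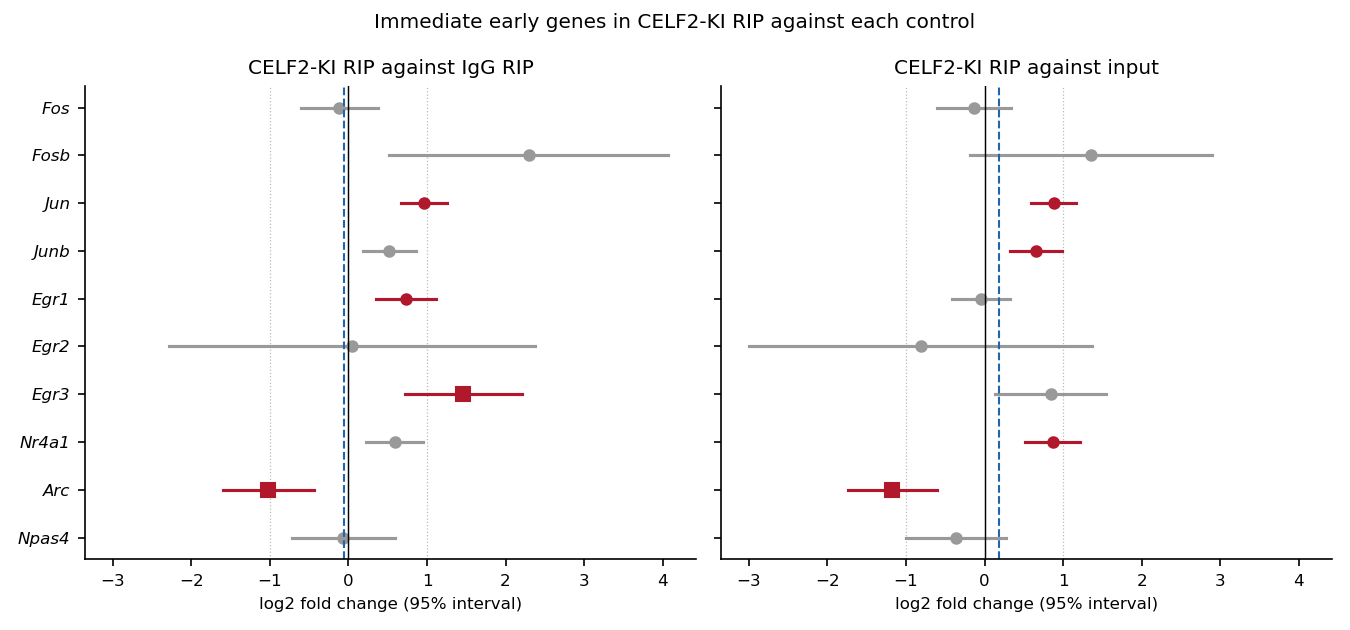
Log2 fold change of CELF2-KI RIP against IgG RIP (left) and against input (right) with 95% intervals from edgeR, for the 10 genes. Red marks an FDR under 0.01, squares mark genes that also changed at least 2-fold, the dashed line is the median of all tested genes and dotted lines mark 2-fold. *Arc* is the only square in both panels, *Egr3* is a square against IgG RIP at 1.46, and the intervals of *Fosb* and *Egr2* are the widest.

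As a group the 10 genes were split. Against IgG RIP their median log2 fold change was 0.55, with 7 above 0, beside -0.06 over all tested genes. Against input the median was 0.30, with 5 above 0, beside 0.19 over all tested genes. Both comparisons use the same CELF2-KI RIP libraries.

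The choice of scaling shifted every gene together. With total counts in place of TMM the median of all genes moved from -0.06 to -0.42 against IgG RIP and from 0.19 to -0.27 against input. A scaling moves all genes of a comparison together, so a member's distance from that median is fixed by construction, at -0.96 for *Arc* against IgG RIP. Over 5 scalings the log2 fold changes themselves ran from -1.38 to -1.02 for *Arc*, from 1.08 to 1.46 for *Egr3* and from 0.59 to 0.96 for *Jun* against IgG RIP. *Egr3* was not called with total counts or with the upper quartile. Those of *Jun*, *Junb*, *Egr3* and *Nr4a1* over both controls were above 0 under all 5, the smallest being 0.16 for *Junb* over IgG RIP, and *Arc* was below 0 under all 5. The balance of calls over all genes depended on the scaling. Of the genes called against IgG RIP, 49.8% were higher with TMM, 21.5% with total counts, 28.7% with the upper quartile, 32.4% with TMM over coding and noncoding genes and 44.6% with DESeq2 size factors. Against input the shares, in the same order, were 48.5%, 12.9%, 28.4%, 17.3% and 36.6%.

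The genes with several transcript rows were divided differently in different libraries. *Arc* has 2 curated rows, and all reads of the 3 CELF2-KI RIP libraries were assigned to the row NM_018790.3. That row took 100%, 0% and 17.4% of *Arc* reads in IgG RIP replicates 1, 2 and 3 and 74.1%, 96.9% and 70.3% in input. Pseudoalignment divides reads that fit several transcripts by estimate, so these are shares of an estimate from few reads, and the sums per gene do not depend on them. *Egr3* has 3 curated rows, of which NM_018781.3 took 47.1% to 88.1% in CELF2-KI RIP, 0% to 100% in IgG RIP and 83.5% to 92.8% in input.

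Predicted transcript models carried most reads of *Npas4* and *Nr4a1*. The curated row of *Npas4* held no reads in CELF2-KI RIP or input, where the predicted models together held all of them. For *Nr4a1* the curated row held 0% to 3.8% of the reads in CELF2-KI RIP, 0% to 39.7% in IgG RIP and 0% to 18.1% in input. *Nr4a1* is for this reason the member that depended most on which rows were summed, and with curated rows alone its log2 fold change turned to -3.16 against IgG RIP and -2.47 against input. *Fos*, *Jun*, *Junb* and *Egr1* have 1 curated row each, so their counts were the same in that fit, while their log2 fold changes against IgG RIP moved from -0.12 to -0.26, from 0.96 to 0.82, from 0.52 to 0.38 and from 0.73 to 0.58.

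**Figure D3:**
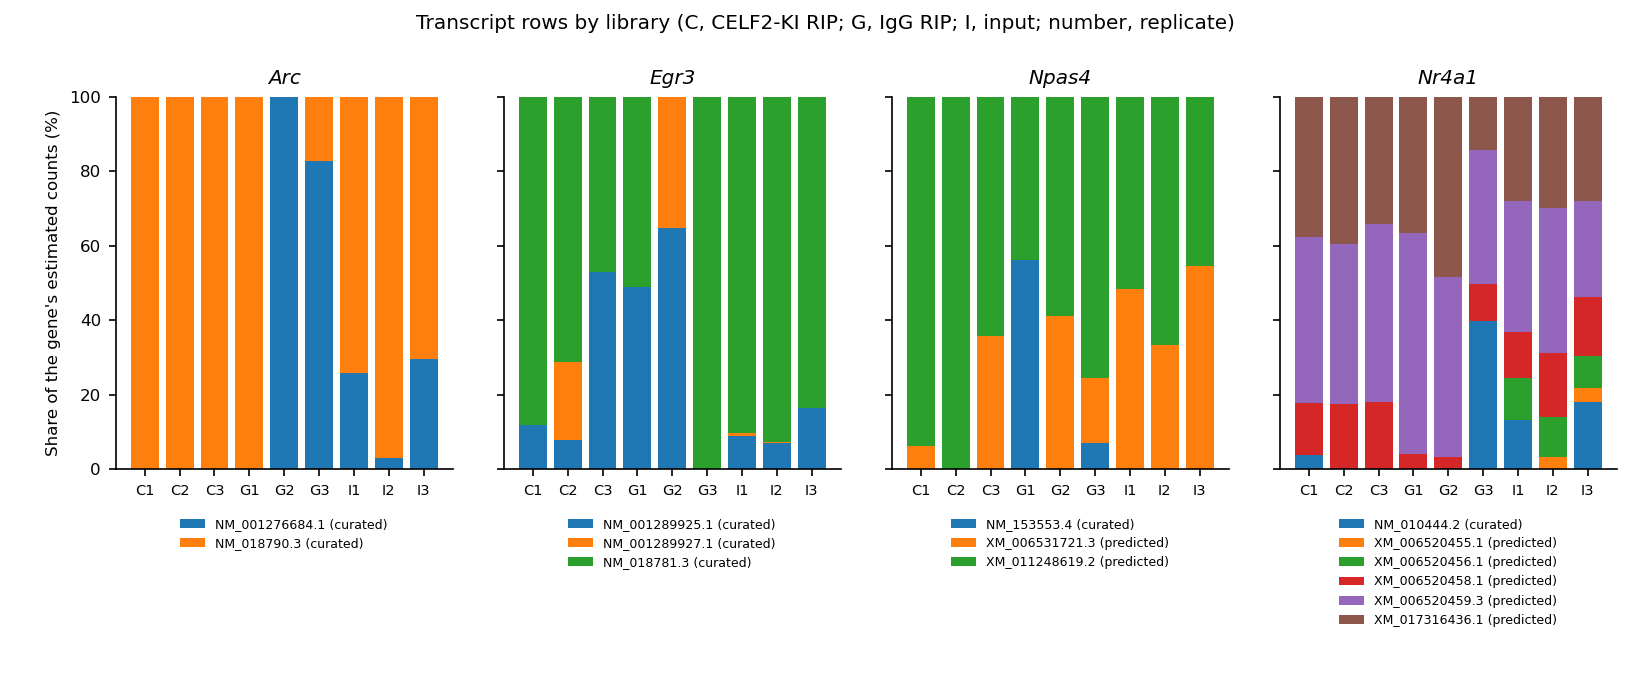
Share of each gene's estimated counts assigned to each RefSeq transcript row, in percent, for *Arc*, *Egr3*, *Npas4* and *Nr4a1* in the 9 libraries (C, CELF2-KI RIP; G, IgG RIP; I, input, with the replicate number). All *Arc* counts of C1, C2 and C3 lie in a single row, while G2 and G3 put 100% and 82.6% in the other row.

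Other genes of the same regulatory system were then examined. Of 11 relatives of these families, 10 were tested and 2 were called higher than both controls, beside 7.58% of all tested genes. Against IgG RIP 2 were called higher and 1 lower, beside 13.4% and 13.6% of all tested genes. Against input 2 were called higher and 0 lower, beside 14.6% and 15.5%. *Fosl2*, which encodes the FOS-related protein FRA2, averaged 213 ± 59.3 CPM across the CELF2-KI RIPs, 71.7 ± 6.58 in the IgG RIPs and 63.3 ± 6.46 in the inputs (SD, n = 3). Its log2 fold change was 1.57 (edgeR FDR = 6.89e-05) over IgG RIP and 1.75 (FDR = 3.16e-05) over input. *Jund*, the third JUN gene, averaged 306 ± 46.7, 113 ± 8.76 and 146 ± 2.54 CPM, with log2 fold changes of 1.44 (edgeR FDR = 1.32e-05) and 1.07 (FDR = 4.73e-05). Both genes passed the 2-fold limit that *Jun* and *Junb* did not, and no difference between genes was tested.

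The remaining call in that list was *Batf*, named after its values were seen, which was called lower than IgG RIP with counts of 1, 0 and 1 in CELF2-KI RIP and 4, 6 and 14 in IgG RIP. The list's median was 0.65 against IgG RIP and 0.41 against input, and stayed there with *Batf* set to a bound of 3 counts per library. *Batf3* did not pass the filter.

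A broader list of rapidly induced genes held calls in both directions. Of 50 genes 49 were tested (*Ptgs2* was not), 11 were called higher and 8 lower than IgG RIP, and 6 higher and 10 lower than input. Over all tested genes 13.4% were called higher and 13.6% lower than IgG RIP, and 14.6% higher and 15.5% lower than input. The medians were 0.46 and -0.01. Higher than both controls were 4 genes and lower than both were 7, beside 7.58% and 9.54% of all tested genes. *Arl4d*, a small GTPase of the ARF family, was higher than IgG RIP and input by 2.13 and 1.69 on the log2 scale (edgeR FDR = 1.29e-05 and 2.76e-05), and *Fbxo33*, an F-box protein gene, had 1.60 and 1.20 (FDR = 0.000125 and 0.000536). The other two were *Trib1* and *Ier5*, named after their values were seen.

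Among the 7 that were lower, *Plk3*, a polo-like kinase gene, had log2 fold changes of -1.64 and -1.16 (edgeR FDR = 2.56e-05 and 0.000148). *Sertad1*, a transcriptional coregulator gene, had only 2, 2 and 3 reads in CELF2-KI RIP against 19, 11 and 11 in the IgG RIPs and 84, 137 and 110 in the inputs, and no fold is given for it. The others, also named after their values were seen, were *Ier2*, *Gadd45g*, *Ppp1r15a*, *Plk2* and *Hes1*. *Plk2*, a kinase acting in synaptic homeostasis, fell from 174 ± 33.7 in the IgG RIPs and 187 ± 6.39 in the inputs to 60.5 ± 12.9 CPM in CELF2-KI RIP (SD, n = 3), with log2 fold changes of -1.53 and -1.63 (edgeR FDR = 5.79e-05 and 3.47e-05).

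A list of delayed and late-response genes was examined next. All 31 were tested, with 6 called higher and 2 lower than IgG RIP and 4 higher and 5 lower than input, and medians of 0.15 and 0.38. The shares over all tested genes were again 13.4% and 13.6%, and 14.6% and 15.5%, and the counts against input lay near them. *Nptx1*, encoding a secreted pentraxin that clusters AMPA receptors, was higher than both controls, with log2 fold changes of 1.79 and 1.32 (edgeR FDR = 8.15e-06 and 1.83e-05). *Cpeb3*, an RNA-binding translational regulator gene, was higher by 1.15 and 1.60 (FDR = 0.0014 and 0.000148).

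Lower than both were *Cgref1*, encoding a calcium-binding growth regulator, at -1.18 and -2.50 (edgeR FDR = 0.000338 and 3.86e-06), and *Ptgds*, at -2.88 and -4.34 (FDR = 9e-06 and 5.74e-07). *Ptgds* encodes prostaglandin D synthase and is also abundant in the meninges and choroid plexus. Both of these were already lower in IgG RIP than in input, by -1.31 and -1.46. *Bdnf*, a growth factor gene of the same list named after its values were seen, was not called, at 0.58 over IgG RIP and 0.66 over input.

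The genes that carry the signal from the synapse to these promoters were called higher more often than lower. Of 31 calcium, MAP kinase, CREB, SRF and MEF2 pathway genes, 9 were called higher and 0 lower than IgG RIP by edgeR, 8 higher and 1 lower than input, and 6 higher than both. Over all tested genes the shares were 13.4% and 13.6% against IgG RIP, 14.6% and 15.5% against input, and 7.58% higher than both. At an unadjusted edgeR p under 0.05, 23 of the 31 differed from IgG RIP in either direction. Over all 15267 tested genes, 4360 were higher and 4089 lower at the stricter cut of an FDR under 0.05. All tested genes were not counted at the unadjusted cut, so the 23 cannot be set directly against these counts. The medians were 0.61 and 0.78, beside -0.06 and 0.19 over all tested genes. The count depended on the scaling and fell to 3 called against each control with total counts.

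*Mef2d*, an activity-dependent transcription factor gene, rose from 123 ± 4.42 in the IgG RIPs and 129 ± 15.7 in the inputs to 373 ± 89.9 CPM in CELF2-KI RIP (SD, n = 3), with log2 fold changes of 1.60 and 1.53 (edgeR FDR = 3.71e-05 and 3.99e-05). *Camkk2*, the kinase upstream of CaMKI and CaMKIV, had 1.27 and 1.53, and *Arnt2*, a dimerisation partner of NPAS4, had 1.13 and 1.22, each with an edgeR FDR under 0.01. *Creb1* and *Crtc1*, named after their values were seen, were also higher than both controls. *Mapk3*, encoding ERK1, was the 1 gene called lower than input, at -1.25, and was also named after its value was seen.

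**Figure D4:**
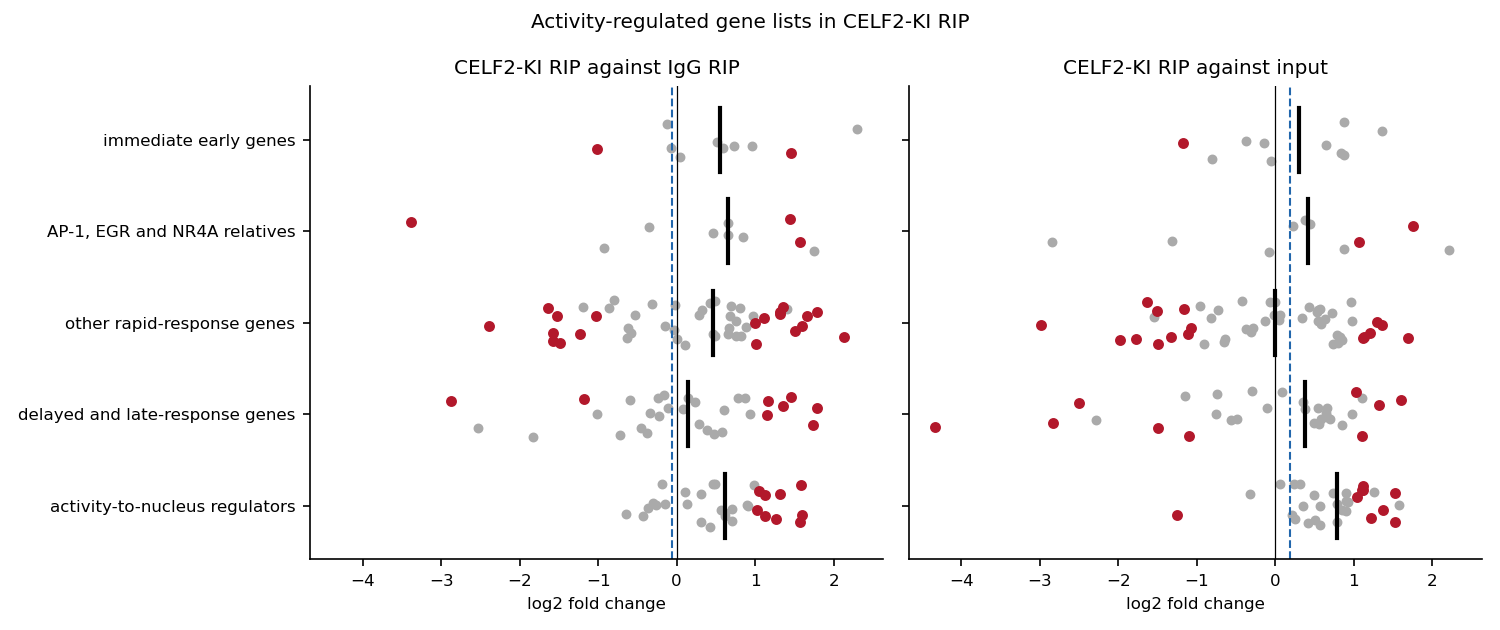
Log2 fold change of CELF2-KI RIP against IgG RIP (left) and input (right) for the 10 immediate early genes and 4 lists of related genes. Each point is a gene, red points were called (FDR under 0.01 and at least 2-fold), black bars are list medians and the dashed line is the median of all tested genes. The activity-to-nucleus regulators have the highest median against input, 0.78, and the other rapid-response genes hold red points on both sides.

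For 3 members the genes with the most similar profile over the 9 libraries were sought, by the root mean square distance between log2 CPM values centred on each gene's mean, among 15257 other genes. *Fos* was closest to *Prag1* (0.064), *Elmo2* (0.0744) and *Prpf19* (0.0793), all level across conditions. *Egr1* was closest to *Pde4a* (0.131), *Wipi1* (0.15) and *Bace1* (0.154), which shared the lower value in IgG RIP. *Arc* was closest to *Zc3h10* (0.0768), *C030006K11Rik* (0.122) and *Slc25a28* (0.126). *Zc3h10* averaged 4.72 CPM across the CELF2-KI RIPs, 9.37 in the IgG RIPs and 10.7 in the inputs. These are descriptions over 9 libraries with no test.

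The labels name neurons, radial glia, astrocytes, OPCs, microglia and endothelial cells in the lysate, and marker lists of each were detected. The levels of these lists moved with the conditions. The summed level of 8 excitatory neuron markers was 1680 to 2290 CPM across the CELF2-KI RIPs, 912 to 1060 in the IgG RIPs and 993 to 1160 in the inputs. That of 8 inhibitory neuron markers was 608 to 743, 384 to 429 and 577 to 597 CPM. All 16 neuronal markers were counted in every library.

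Lists of other cells differed from these in direction or size. The 9 radial glia and progenitor markers summed to 532 to 995 CPM across the CELF2-KI RIPs, 813 to 916 in the IgG RIPs and 1210 to 1420 in the inputs, and 6 erythroid markers to 75.2 to 78.7, 285 to 452 and 710 to 918 CPM. The 8 microglia markers gave 94.1 to 128, 63 to 84.3 and 139 to 180 CPM, with *P2ry12* at 0 in all 6 RIP libraries and *Csf1r* at 0 in all 3 inputs. Their sum was thus higher in CELF2-KI RIP than in IgG RIP, while the median log2 fold change of the tested microglia markers was -1.57. The 8 astrocyte and oligodendrocyte precursor markers gave 710 to 839, 656 to 705 and 625 to 746 CPM, and the 8 endothelium and pericyte markers 375 to 467, 313 to 580 and 420 to 576 CPM. Nuclear-retained RNAs, 5 of 6 of which were matched, summed to 7930 to 11300, 7560 to 12100 and 4780 to 5630 CPM. RNAs of this list were thus counted in the cytoplasmic fraction, and how much of its RNA was nuclear was not tested. The part of these differences in the values of the immediate early genes was not tested. The RIPs and inputs came from the same kind of lysate of mixed cells, and within it a low level of a marker list may mean few cells of that type or little RNA in each, which cannot be told apart.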

How the data were processed

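Cortical cytoplasmic RNA of 9 libraries was analysed. Per the labels and the paper's methods, the authors depleted rRNA, prepared directional libraries, checked and trimmed reads with FastQC 0.11.9 and fastp 0.23.4, removed residual rRNA reads with Ribodetector 0.3.1 and pseudoaligned with kallisto 0.51.1. The deposited values are estimated counts per RefSeq transcript, not scaled for depth or length. The processing notes name mm10 without a role. All 9 columns were used.

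Accessions without their version were looked up in RefSeq's gene table (GRCm38.p6), and 86722 of 107384 rows had a gene. Sums per gene were rounded to whole numbers. Protein-coding genes that reached 0.5 CPM in 3 or more libraries were tested in edgeR 4.0.16 (R 4.3.3) with TMM, a mean per condition over all 9 libraries and the quasi-likelihood test. Calls needed an FDR under 0.01 and at least 2-fold. Standard errors were taken as the log2 fold change over the square root of F. DESeq2 1.42.0 was an alternative. Summaries were made with pandas 2.3.3 and plots with matplotlib 3.10.9 in Python 3.11.15. The steps were tested on simulated data in which few genes changed, with equal numbers up and down. That setting could not check how the calls depend on the scaling.

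Differences between replicates exceeded sampling noise (chi-square per gene of 12.2 to 46.0). Deviations from condition means, correlated over 13266 genes between same-numbered libraries, gave 0.139, 0.108 and 0.167 for CELF2-KI RIP with input. They were -0.05, 0.017 and 0.013 for the CELF2-KI and IgG RIPs, and 0.064, 0.072 and 0.041 for IgG RIP with input. Libraries with different numbers were not correlated and the labels give no pairing, so these values cannot show which libraries were paired. Total estimated counts ranged from 15919600 to 105116427 per library. Reads carry no molecular identifiers, so intervals cover counting error and the spread of these libraries only.

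The members and gene lists were chosen with earlier results of these data known. From each list of related genes the text names up to 4 called in the same direction against both controls, those with the largest change against IgG RIP, and, for *Fos*, *Egr1* and *Arc*, the 3 genes with the closest profile. Other genes given with a fold change or a call are marked as named after their values were seen. Untested list genes, an overlapping gene and marker genes at 0 are named as such. A gene that this rule would name is not reported here. No sequence is printed, since transcript sequences were not used here.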

Additional observations from a re-analysis of the deposited data

How the results depend on the processing

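Of the 2 members called against IgG RIP, 1 (*Arc*) remained with total counts, with the upper quartile and with version-matched transcripts. With edgeR's glmTreat 0 remained, as when only the 2 conditions were fitted and with curated transcripts alone. With the replicate number as a block 1 (*Egr3*) remained, as *Arc* moved to an edgeR FDR of 0.0104. The labels do not say whether same-numbered libraries share a lysate. Without 1 library each there were between 0 and 3 calls. At an FDR under 0.05 with no minimum fold, 7 passed. Of the 15267 genes tested, 4360 were higher and 4089 lower than IgG RIP at that looser FDR. Against input 5319 were higher and 3903 lower, and between IgG RIP and input 3082 were higher and 2979 lower. Against input the 1 call (*Arc*) became 0 with glmTreat and 5 at the looser FDR, and 0 to 1 without 1 library. The replicate block changed no call there (edgeR FDR = 0.00399 for *Arc*). Between IgG RIP and input 0 calls became 1 at the looser FDR and 1 (*Egr3*, at -1.62) without IgG RIP replicates 1 and 2, a setting chosen after seeing the data. Signs turned for values near 0 or on few reads, and for *Nr4a1* when fewer of its transcript rows were summed. *Egr2* against IgG RIP went from 0.04 to -0.02 with DESeq2 size factors, -0.32 with total counts, -0.22 with the upper quartile, -0.13 with TMM over coding and noncoding genes, -0.04 without a filter and between -0.78 and 2.88 without 1 library. *Npas4* against IgG RIP lay between -0.31 and 0.16 without 1 library. *Nr4a1* turned to -3.16 against IgG RIP and -2.47 against input with curated transcripts, and to -0.35 against input and -0.62 between IgG RIP and input with version-matched ones, also chosen after seeing the data. Between IgG RIP and input *Fos* was 0.01 with the upper quartile, 0.10 with curated transcripts, 0.13 without the 2 IgG RIP libraries and between -0.10 and 0.09 without 1 library, *Jun* was 0.04 with curated transcripts and *Junb* was -0.04 with TMM over coding and noncoding genes. *Npas4* dropped out of the curated and version-matched fits, and *Fos* and *Egr3* out of the latter. The causes were not tested. Depth limits *Fosb*, *Egr2* and *Arc*, which had at most 35 reads in any CELF2-KI RIP library.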
